A study of Homo sapiens with 8 samples.

Results

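The OAS and IFIT families comprised 8 genes, OAS1, OAS2, OAS3, OASL, IFIT1, IFIT2, IFIT3 and IFIT5, chosen by gene symbol from the 58870 gene rows of the deposited count table. All 8 passed the filter on low counts and were tested among 13860 genes. Expression was measured by RNA sequencing of Panc 10.05, a long-used line of human pancreatic ductal adenocarcinoma cells. The control group held 4 libraries of Panc 10.05 cells, and the ELAPOR1 group held 4 libraries of the same line carrying an ELAPOR1 transgene for overexpression. ELAPOR1 is a transmembrane protein of the endosomal and lysosomal compartment. The series title names the classical/progenitor tumour subtype and metabolism as its subject. The labels give neither the vector of the transgene nor that of the controls, and they do not say whether the transgenic cells were 1 clone or whether replicates were separate cultures. The p-values therefore measure only the spread between these libraries, which may be technical.

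The 2 families are classical products of the type I interferon response. OAS1, OAS2 and OAS3 are enzymes that sense double-stranded RNA and join ATP into short chains of adenosine with unusual linkages, known as 2-5A, which act as a second messenger of the antiviral response. OASL resembles them but has lost the enzymatic activity and carries ubiquitin-like domains at its end. The IFIT proteins are built of tetratricopeptide repeats and bind RNA whose end or cap marks it as foreign. Transcription of both families is driven by factors that interferon signalling activates, STAT2 and IRF9 among them, at the interferon-stimulated response element of their promoters.

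The promoter letters are shown because the 8 genes share a known mode of induction. Any relation between the letters and the size of change was not tested. RefSeq promoters on GRCh38.p14, each reaching from 250 bases before to 50 bases after a transcription start, were matched for 5 of the 8 genes and gave 6 promoters, IFIT3 having 2 starts. All are on the plus strand. The response element was searched on both strands as GAAA, any 2 bases (NN), then GAAA again, called the full form here. A form with a spacer of 1 base, GAAANGAAA, was added after the sequences had been seen. Capitals mark the matches, which read as TTTC, the spacer and TTTC where the element lies on the other strand. Overlapping matches run together.
IFIT1, chr10:89392482-89392554: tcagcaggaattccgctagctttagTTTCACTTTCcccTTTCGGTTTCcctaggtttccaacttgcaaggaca
IFIT3, upstream start, chr10:89327816-89327909: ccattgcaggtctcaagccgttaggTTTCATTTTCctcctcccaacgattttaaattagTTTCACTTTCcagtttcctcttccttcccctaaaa
IFIT3, downstream start, chr10:89332410-89332517: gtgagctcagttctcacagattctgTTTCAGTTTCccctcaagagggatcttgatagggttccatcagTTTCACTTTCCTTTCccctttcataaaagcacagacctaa
IFIT5, chr10:89414498-89414598: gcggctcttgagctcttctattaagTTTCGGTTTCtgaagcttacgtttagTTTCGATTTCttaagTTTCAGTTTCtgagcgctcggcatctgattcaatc
OAS1, chr12:112906920-112906978: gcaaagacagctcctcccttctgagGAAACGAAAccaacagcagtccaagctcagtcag
OAS3, chr12:112938301-112938496: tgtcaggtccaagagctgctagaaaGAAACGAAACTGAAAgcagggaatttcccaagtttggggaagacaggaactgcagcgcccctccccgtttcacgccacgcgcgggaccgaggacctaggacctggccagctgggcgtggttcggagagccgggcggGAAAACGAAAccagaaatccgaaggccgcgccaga

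The promoters of IFIT1, IFIT5 and OAS3 and both promoters of IFIT3 each held at least 2 matches to the full form, whereas 3.57% of all 35116 RefSeq promoters held at least 1. IFIT5 had the most, with matches starting 45, 19 and 4 bases upstream of its start. In IFIT1 they started 116 and 103 bases upstream. The OAS1 promoter held no match to the full form and 1 to the shorter GAAANGAAA, 17 bases upstream of the start, a form present in 3.12% of all promoters. With the last letter dropped, as GAAANNGAA, 8.11% of all promoters held it. Of 27 other interferon-induced genes with a promoter in the table, 19 held the full form in at least 1 promoter. This is a count of genes, whereas the shares of all promoters count each promoter. A match describes the letters of the window and is not a bound site.

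ELAPOR1 was examined first as a check of the labels. Its counts were 1, 1, 4 and 4 in control libraries and 7006, 6422, 5910 and 7368 in ELAPOR1 libraries. Library totals ran from 16558597 to 18128732 counts in control and from 13765504 to 17258149 in ELAPOR1 libraries. The 8 epithelial markers chosen for the cell line were all expressed, with a summed level of 12535 to 13858 CPM (counts per 1e6, scaled between libraries with TMM) in control and 11676 to 12003 CPM in ELAPOR1 libraries. Most of this sum came from KRT8, at 5355 and 4785 CPM, and KRT18, at 4692 and 3662 CPM. The 8 did not move alike. In the edgeR test described below 3 were called higher and 4 lower, beside 22.6% and 22.1% of all tested genes. Of 12 markers of leukocytes, plasmacytoid dendritic cells, endothelium and fibroblasts, 9 had no more than 10 counts in any control library and 8 in any ELAPOR1 library. Their summed level, from 87.9 to 93.9 CPM in control and from 76.8 to 82.7 CPM in ELAPOR1 libraries, came mostly from CD68, at 84.4 and 75.7 CPM. PTPRC had at most 1 count in any library, and CD3E, LILRA4, CLEC4C and COL1A2 were among those at 0 in all 8. Not all were so low. The endothelial marker VWF had 27 to 32 counts in control and 8 to 15 in ELAPOR1 libraries. The fibroblast marker COL1A1 had 46 to 77 counts in control and 41 to 51 in ELAPOR1 libraries.

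Of the 8 genes, 7 were higher in ELAPOR1 libraries (edgeR quasi-likelihood test, Benjamini-Hochberg adjusted p under 0.05 over all tested genes), 0 were lower, and IFIT5 did not pass. Across all tested genes, 22.6% were called higher and 22.1% lower, 44.7% in either direction. The CPM ranges of the groups did not overlap for the same 7 genes, all higher in ELAPOR1, against 20.0% of tested genes in that direction and 39.2% in either. The changes ran from 1.12-fold for IFIT2 to 2.81-fold for OAS2 among the 7. The median log2 fold change of the 8 was 0.81, against 0.00087 over all tested genes. In bulk RNA, a change in the number of cells expressing a gene and a change in RNA per cell cannot be told apart.

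**Figure D1:**
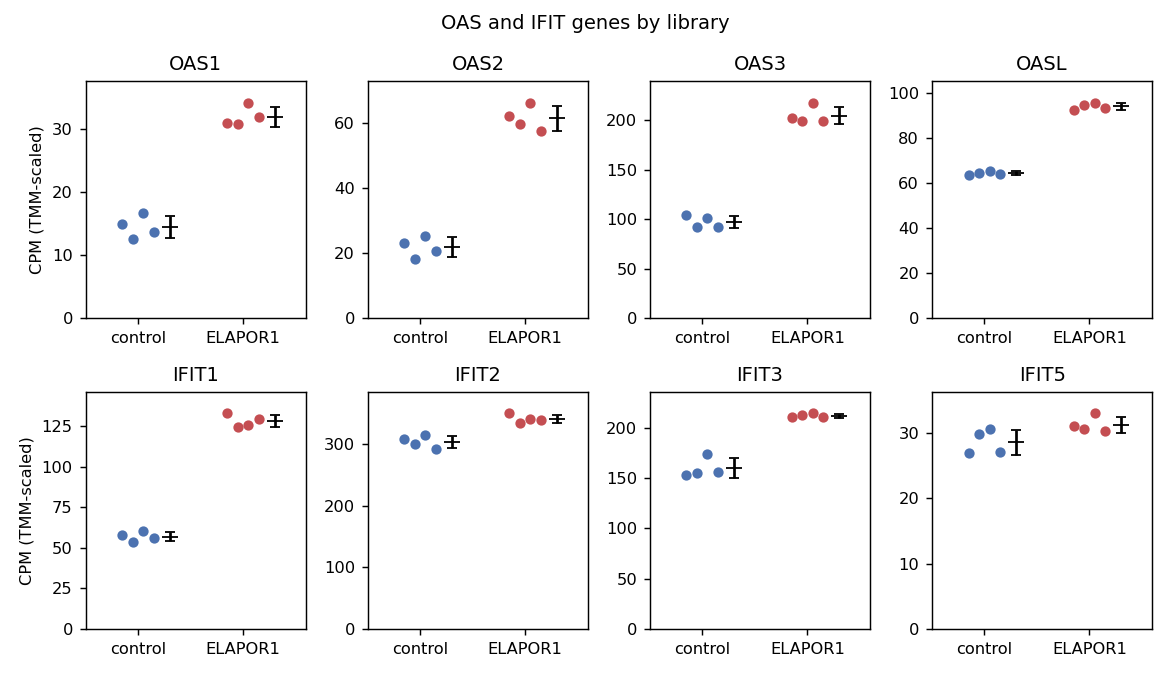
CPM of the 8 genes (y axes from 0, a different scale in each panel) in 4 control libraries (blue) and 4 ELAPOR1 libraries (red), in the order of the replicate numbers, with mean and SD in black. The ELAPOR1 libraries sit above every control library for all genes but IFIT5, where the highest control value is 30.5 CPM and the lowest ELAPOR1 value 30.3 CPM.

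The enzymatically active OAS genes lie beside each other on chromosome 12 in GRCh38 and all more than doubled. OAS2 (ENSG00000111335.12, plus strand, 112978395 to 113011723) encodes the form with a pair of OAS units. It was at 23.1, 18.2, 25.2 and 20.5 CPM in control replicates 1 to 4, and at 62.1, 59.8, 66.3 and 57.5 CPM in ELAPOR1 replicates 1 to 4. Every ELAPOR1 library was more than 2-fold above the highest control library. For OAS2 the log2 fold change was 1.49 ± 0.0719 (SE), with a 95% interval of 1.34 to 1.64 (edgeR, adjusted p = 9.2e-15), which was the largest of the 8 genes.

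OAS1 (ENSG00000089127.13, plus strand, 112906777 to 112933222) encodes the form with a single OAS unit. It was at 15.02, 12.6, 16.7 and 13.7 CPM in control and at 31.0, 30.8, 34.3 and 32.0 CPM in ELAPOR1 libraries. The groups stood well apart. In OAS1 the log2 fold change was 1.14 ± 0.0767 (SE), with a 95% interval of 0.98 to 1.30 (edgeR, adjusted p = 3.1e-14).

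OAS3 (ENSG00000111331.13, plus strand, 112938352 to 112973249) encodes the longest form, which responds most strongly to long double-stranded RNA. Its control libraries held 104, 92.3, 101 and 92.6 CPM and its ELAPOR1 libraries 203, 199, 218 and 199 CPM. The spread within each group was small beside the gap between them. OAS3 had a log2 fold change of 1.07 ± 0.0402 (SE), with a 95% interval of 0.98 to 1.15 (edgeR, adjusted p = 4.5e-20). In GENCODE 29 the antisense transcript AC004551.1 runs across OAS1, OAS3 and OAS2 on the other strand. It had 0 counts in every library.

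OASL (ENSG00000135114.12, minus strand, 121019111 to 121039242), the inactive relative that is known to assist RIG-I, lies apart from the other 3 on chromosome 12. It was at 63.4, 64.3, 65.4 and 64.1 CPM in control and at 92.3, 94.6, 95.6 and 93.1 CPM in ELAPOR1 libraries. This was the tightest of the 4 genes within the control group, with an SD of 0.844 CPM. OASL had a log2 fold change of 0.55 ± 0.0402 (SE), with a 95% interval of 0.46 to 0.63 (edgeR, adjusted p = 2.9e-13), below that of the 3 enzymes.

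The 4 IFIT genes sit in 1 cluster on the plus strand of chromosome 10 and did not move alike. IFIT1 (ENSG00000185745.10, 89392546 to 89406486) encodes the protein that captures RNA with an incompletely methylated cap and blocks its translation. It was at 57.9, 53.5, 60.5 and 56.1 CPM in control and at 133, 124, 126 and 129 CPM in ELAPOR1 libraries. Each ELAPOR1 library was above 2-fold of each control library. IFIT1 had a log2 fold change of 1.17 (SE 0.0424) and a 95% interval of 1.08 to 1.26, and it ranked 6 among all tested genes by adjusted p (edgeR adjusted p = 2.7e-21).

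IFIT3 (ENSG00000119917.14, 89327894 to 89340971) encodes a partner that binds and stabilises IFIT1. It was at 153, 155, 174 and 156 CPM in control and at 210.4, 213, 214 and 210.1 CPM in ELAPOR1 libraries. Control replicate 3 was high among the controls and still under the lowest ELAPOR1 library. In IFIT3 the log2 fold change was 0.41 ± 0.0358 (SE), with a 95% interval of 0.34 to 0.48 (edgeR, adjusted p = 1.8e-11).

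IFIT2 (ENSG00000119922.10, 89283694 to 89309276), a further partner in the IFIT complex that has been linked to apoptosis, was already high in control cells. Its control libraries held 308, 299.6, 314 and 291 CPM and its ELAPOR1 libraries 349.8, 334, 341 and 339 CPM. The groups did not overlap but came close. IFIT2 changed by a log2 fold change of 0.17 ± 0.0303 (SE), with a 95% interval of 0.11 to 0.23 (edgeR, adjusted p = 2.3e-05), so that the interval reached no higher than 1.17-fold.

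IFIT5 (ENSG00000152778.9, 89414586 to 89421001) encodes a protein that binds RNA with a free triphosphate end and acts on its own. It was at 26.8, 29.8, 30.5 and 27.0 CPM in control and at 31.0, 30.5, 33.0 and 30.3 CPM in ELAPOR1 libraries. The groups overlapped narrowly. In IFIT5 the log2 fold change was 0.13 ± 0.0630 (SE), with a 95% interval of -0.00059 to 0.26 (edgeR, adjusted p = 0.0997), so that a rise of up to 1.19-fold lay within the interval. IFIT5 had the smallest fold change of the 8 genes.

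**Figure D2:**
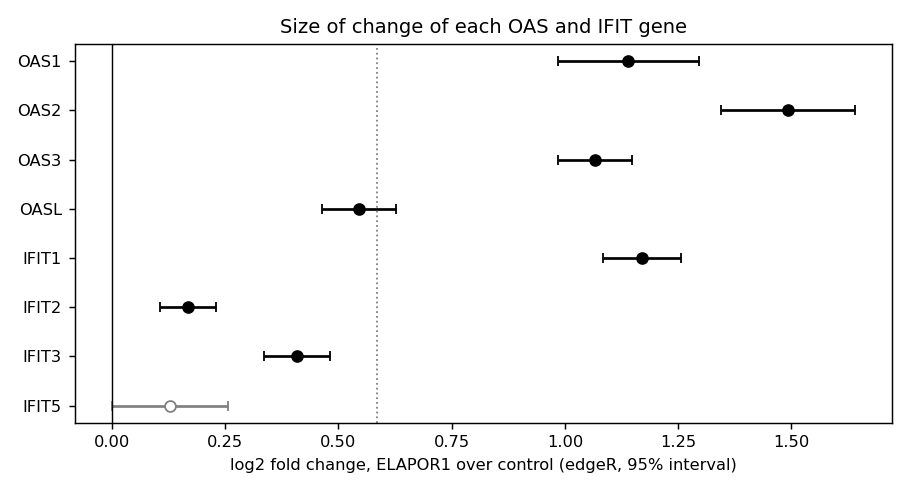
Log2 fold change of ELAPOR1 over control (x axis) for each of the 8 genes, with 95% intervals from the edgeR fit on 4 against 4 libraries. Filled points passed the test and the open point (IFIT5) did not, and the dotted line marks a 1.5-fold change. OAS1, OAS2, OAS3 and IFIT1 lie at 1.07 to 1.49, and the other 4 genes at 0.13 to 0.55.

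When tested against a 1.5-fold change in place of no change (edgeR glmTreat), 4 of the 8 genes remained, OAS1 (adjusted p = 4.4e-07), OAS2 (adjusted p = 1.8e-10), OAS3 (adjusted p = 1.6e-11) and IFIT1 (adjusted p = 1.6e-13). All 4 were higher, and 0.895% of tested genes passed this test in that direction.

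Whether genes of 1 family moved by different amounts was tested with ratios of counts within each library, which do not depend on scaling between libraries. Of 12 pairs within the families, 10 changed their ratio between the groups, each with the smallest p that 4 against 4 libraries can give (two-sided exact permutation test, p = 0.0286, Benjamini-Hochberg adjusted p = 0.0343 over the 12 pairs). The pairs share genes and are not separate results, and pairs of other genes were not tested for comparison. OAS2 gained on every other OAS gene. With errors given as SD over 4 libraries, the log2 ratio of OAS2 to OASL went from -1.57 ± 0.197 in control to -0.61 ± 0.0772 with ELAPOR1, a change of 1.94-fold in the ratio, and that of OAS2 to OAS3 rose by 0.43. The ratio of OAS1 to OAS3 differed by 0.079, which did not pass, from -2.75 ± 0.113 to -2.68 ± 0.0314 (exact permutation p = 0.257, adjusted p = 0.281).

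In the IFIT cluster, IFIT1 gained on each of its neighbours. The log2 ratio of IFIT1 to IFIT2 went from -2.41 ± 0.0519 to -1.41 ± 0.0223 (SD, n = 4 each), a 2.0-fold change in the ratio. That of IFIT1 to IFIT3 went from -1.48 ± 0.0603 to -0.73 ± 0.0540, and that of IFIT1 to IFIT5 from 0.998 ± 0.115 to 2.04 ± 0.0775. IFIT3 gained on IFIT2, whose log2 ratio to IFIT3 fell by 0.24, and on IFIT5, to which its ratio rose by 0.28. The ratio of IFIT2 to IFIT5 differed by 0.039, which did not pass (exact permutation p = 0.457, adjusted p = 0.457). With 1 library left out the smallest possible p is 0.0571, so that no pair could pass, although the 10 differences kept their sign.

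**Figure D3:**
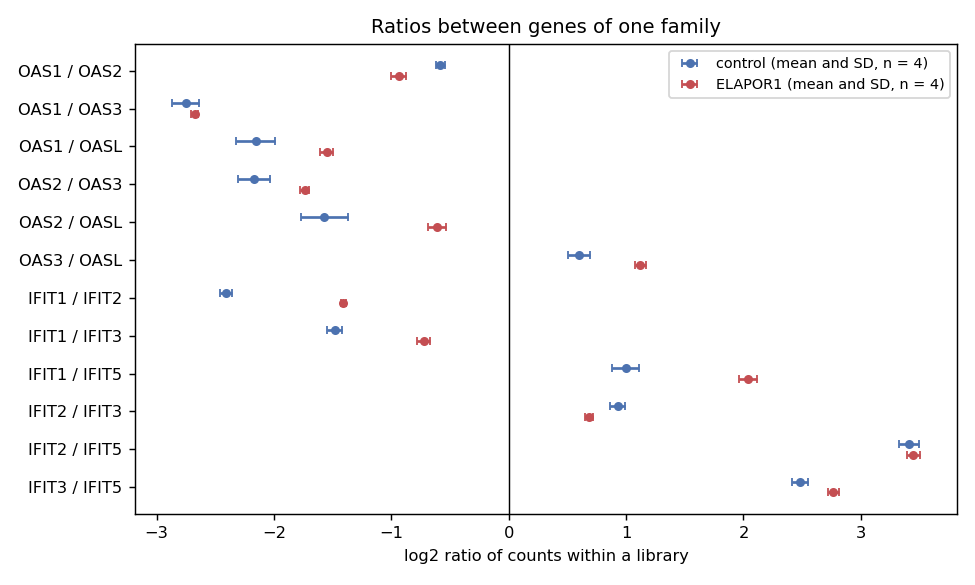
Log2 ratio of counts (x axis) for the 12 pairs of genes within the OAS and IFIT families, as mean and SD of 4 control libraries (blue) and 4 ELAPOR1 libraries (red). The ratio of IFIT1 to IFIT2 moves from -2.41 to -1.41, while the group values of OAS1 to OAS3 and of IFIT2 to IFIT5 overlap.

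As a result the make-up of each family differed. Summed over the 4 OAS genes, control libraries held 198 ± 10.6 CPM and ELAPOR1 libraries 392 ± 14.9 CPM (SD, n = 4 each). OAS2 made up 11.0 ± 0.982% of the OAS sum in control and 15.7 ± 0.447% in ELAPOR1 libraries, and OASL 32.5 ± 1.68% and 23.97 ± 0.682%. Summed over the 4 IFIT genes, the level was 548 ± 21.4 CPM in control and 712 ± 9.69 CPM in ELAPOR1 libraries. IFIT1 made up 10.4 ± 0.311% and then 18.0 ± 0.362% of this sum, and IFIT2 55.3 ± 0.942% and then 47.9 ± 0.316%.

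Levels were compared between genes after division by the length of all exons of the gene in GENCODE 29. In control libraries IFIT2 was the highest of the 8, at 73.9 ± 2.39 CPM per kb, followed by IFIT3 at 60.5 ± 3.68 CPM per kb (SD, n = 4 each). OASL followed at 18.3 ± 0.240, IFIT1 at 12.4 ± 0.647, OAS3 at 11.8 ± 0.739 and IFIT5 at 7.11 ± 0.471 CPM per kb. OAS2 at 3.48 ± 0.486 and OAS1 at 2.93 ± 0.358 CPM per kb were the lowest. The ranges of IFIT1 and OAS3 overlapped, as did those of OAS2 and OAS1, while the other neighbours in this order were separate. In ELAPOR1 libraries IFIT2 (83.1 ± 1.66) and IFIT3 (80.3 ± 0.740) still led. IFIT1 (27.8 ± 0.828), OASL (26.7 ± 0.420) and OAS3 (24.8 ± 1.08 CPM per kb) came close together, IFIT1 overlapping OASL and OASL overlapping OAS3. OAS2 (9.81 ± 0.598) passed IFIT5 (7.77 ± 0.303), and OAS1 (6.47 ± 0.321 CPM per kb) was the lowest by this length. This order depended on the length used. With the longest transcript as length, IFIT2 and IFIT3 kept ranks 1 and 2 in both groups. In control libraries OAS3 (14.5 CPM per kb) then stood above IFIT1 (12.4 CPM per kb) without overlap, and OAS1 above OAS2, at 6.005 and 4.601 CPM per kb with overlapping ranges. In ELAPOR1 libraries OAS3 (30.5 CPM per kb) stood above OASL (28.8 CPM per kb), and IFIT5 (7.77 CPM per kb) was the lowest, below OAS2 (12.97 CPM per kb) and OAS1 (13.3 CPM per kb), whose ranges overlapped each other but not that of IFIT5.

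Some libraries were high or low for most of the 8 genes. Control replicate 3 lay above the control mean for 8 of the 8 genes and was the highest control library for 7, while control replicate 4 lay above it for 0. ELAPOR1 replicate 3, the library with the fewest counts (13765504), lay above the ELAPOR1 mean for 7 genes and was the highest for 6. The number of genes above the group mean was 5 in control replicate 1 and 1 in control replicate 2. It was 3, 2 and 1 in ELAPOR1 replicates 1, 2 and 4, and IFIT1 was highest in ELAPOR1 replicate 1. Replicate 3 held the most such genes in both groups and replicate 4 the fewest. Whether equally numbered libraries share a batch was not tested. Leaving out each library in turn gave log2 fold changes of 1.42 to 1.57 for OAS2, 1.08 to 1.21 for OAS1, 1.14 to 1.20 for IFIT1, 0.38 to 0.45 for IFIT3, 0.15 to 0.19 for IFIT2 and 0.092 to 0.16 for IFIT5, and the same 7 genes passed each time.

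Other transcripts share the loci. The annotation places LIPA, which encodes lysosomal acid lipase, on the opposite strand with a span that overlaps IFIT1, IFIT2 and IFIT3. The use of strand in counting is not given in the sources used here. LIPA had whole counts in all 8 libraries, and whether reads were shared between LIPA and the IFIT genes was not tested. LIPA was at 238 ± 5.78 CPM in control and 189.6 ± 3.64 CPM in ELAPOR1 libraries, opposite in direction to the IFIT genes (log2 fold change -0.33, adjusted p = 1.5e-10 in edgeR). On the same strand as IFIT2, the transcript AL353751.1 (ENSG00000232110.7, 89283765 to 89292125) overlaps the start of the IFIT2 span. It was estimated at 1.94, 1.36, 0.659 and 1.16 CPM in control and at 6.02, 7.05, 7.49 and 6.46 CPM in ELAPOR1 libraries. Its log2 fold change, 2.38 ± 0.206 (SE, adjusted p = 1.5e-11 in edgeR), exceeded that of every OAS and IFIT gene. All 8 count values of both IFIT2 and AL353751.1 were fractional, as RSEM gives when reads match more than 1 gene, while the other 7 genes had whole counts. The counts of AL353751.1 came to 0.210 to 0.631% of those of IFIT2 in control and to 1.72 to 2.20% in ELAPOR1 libraries. IFIT1B, the remaining gene of the cluster, had 2 counts or fewer in any library and was not tested.

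Of 11 tested genes within 250 kb of a member, 2 were higher, 6 lower and 3 not called. These counts stand beside 22.6% called higher and 22.1% lower among all tested genes. The median log2 fold change of the 11 was -0.16. AL353751.1 was among the higher genes. On chromosome 12, TPCN1 (-0.44, edgeR adjusted p = 3.7e-11), P2RX4 (-0.56, adjusted p = 4.3e-06), RITA1 (-0.28, adjusted p = 2.4e-05), CAMKK2 (-0.22, adjusted p = 1.1e-04) and SPPL3 (-0.15, adjusted p = 9.2e-03) fell. The call of SPPL3 was lost without ELAPOR1 replicate 4 (-0.12, edgeR adjusted p = 0.0627) and without control replicate 3 (-0.12, adjusted p = 0.0576). DDX54 (-0.08, edgeR adjusted p = 0.0573) and IQCD (-0.16, adjusted p = 0.800) did not pass, nor did PANK1 beside the IFIT cluster (0.15, adjusted p = 0.130). DDX54 passed without control replicate 1 (-0.10, edgeR adjusted p = 8.7e-03).

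Of 4 genes that act with the products of the OAS enzymes, 2 rose and 0 fell. In either direction this share was near the 44.7% of all tested genes, of which 22.6% were called higher and 22.1% lower. PDE12, a phosphodiesterase that degrades 2-5A, rose from 46.3 ± 1.67 to 55.4 ± 2.96 CPM (0.26, edgeR adjusted p = 8.7e-05). ABCE1, a ribosome recycling factor, rose by 0.11 (edgeR adjusted p = 7.0e-03), and AKAP7 did not pass (-0.17, adjusted p = 0.548). Among the enzymes that methylate mRNA caps, the mark that lets host RNA escape IFIT1, CMTR1 (0.17, edgeR adjusted p = 1.8e-03) and CMTR2 (0.19, adjusted p = 1.8e-03) rose and RNMT fell (-0.28, adjusted p = 1.4e-07).

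Of 10 interferon genes, 9 did not pass the filter on low counts, and 7 of these had no count in any library: IFNA1, IFNA2, IFNK, IFNW1, IFNG, IFNL2 and IFNL3. IFNB1 had at most 2 counts and IFNL1 at most 5. IFNE, an interferon made by epithelia, was the exception, with 52, 51, 33 and 49 counts in control and 92, 75, 81 and 55 in ELAPOR1 libraries. Its level went from 2.71 ± 0.494 to 4.91 ± 1.21 CPM, and the log2 fold change was 0.84 ± 0.193 (SE, adjusted p = 5.1e-04 in edgeR).

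Of the 6 tested receptor chains, 0 were called higher and 1 lower, beside 22.6% higher and 22.1% lower among all tested genes. The 1 called lower was IFNGR2 (-0.19, edgeR adjusted p = 0.0459). It was lost with limma-voom (adjusted p = 0.0570), and when control replicate 2 or 4 or any of ELAPOR1 replicates 1 to 4 was left out (edgeR adjusted p = 0.0507 to 0.211). The interferon alpha and beta receptor chains IFNAR1 (0.15, edgeR adjusted p = 0.0577) and IFNAR2 (-0.08, adjusted p = 0.551) did not pass, nor did the lambda receptor chains IFNLR1 (-0.13, adjusted p = 0.285) and IL10RB (-0.14, adjusted p = 0.185) or the gamma receptor chain IFNGR1 (0.06, adjusted p = 0.564). IFNAR1 passed without ELAPOR1 replicate 2 (0.19, edgeR adjusted p = 0.0325), and IFNAR2 was at 0.0067 without ELAPOR1 replicate 3 (adjusted p = 0.967).

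Of 11 kinases and factors, 10 were tested, 3 rose, IRF9 and IRF1 among them, and 1 fell, with a median log2 fold change of 0.085. In either direction this share was near the 44.7% of all tested genes, of which 22.6% were called higher and 22.1% lower. IRF9 rose from 20.2 ± 1.86 to 30.1 ± 1.45 CPM (SD, n = 4 each; 0.57, edgeR adjusted p = 3.3e-08). IRF1, which can bind the same element, rose by 0.36 (edgeR adjusted p = 2.6e-06). STAT2, the partner of IRF9, fell from 82.5 ± 2.37 to 74.7 ± 3.71 CPM (-0.14, edgeR adjusted p = 6.6e-03), a call lost without ELAPOR1 replicate 2 (-0.11, adjusted p = 0.0535). IRF7 had at most 1 count in any library.

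Of 6 feedback regulators, 5 were tested, 2 rose and 2 fell, beside 22.6% called higher and 22.1% lower among all tested genes. USP18, which binds IFNAR2 and damps signalling, rose by 0.48 (edgeR adjusted p = 3.5e-05) and ISG15, the ubiquitin-like modifier, by 0.27 (adjusted p = 1.1e-04). SOCS3, an inhibitor of cytokine receptor signalling, fell (-0.38, edgeR adjusted p = 1.0e-06), as did the phosphatase PTPN2 (-0.37, adjusted p = 2.8e-09), while PTPN1 did not pass (0.05, adjusted p = 0.279). Of 14 genes of RNA and DNA sensing, 13 were tested, 5 rose and 1 fell, with a median of 0.23. In either direction this share was again near the 44.7% of all tested genes, of which 22.6% were called higher and 22.1% lower. The largest changes among the called genes were those of the RNA sensors IFIH1 (0.76, edgeR adjusted p = 7.0e-13), TLR3 (0.56, adjusted p = 3.8e-04) and DDX58, which encodes RIG-I (0.50, adjusted p = 1.6e-09). Among called genes ADAR, which edits double-stranded RNA, followed (0.34, adjusted p = 4.6e-11). The other called genes of the list, chosen for naming after their values were seen, were EIF2AK2 (0.33, edgeR adjusted p = 1.6e-07) and TMEM173, which encodes STING and fell (-0.28, adjusted p = 9.2e-06).

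Of 30 other interferon-induced effectors, 22 rose, 0 fell and 8 did not pass, with a median log2 fold change of 0.53, beside 22.6% called higher among all tested genes. This list and the others were chosen with earlier results of these data known, so their direction is not independent evidence. CMPK2, a mitochondrial nucleotide kinase, rose most (1.38, edgeR adjusted p = 2.2e-13), followed by XAF1, a proapoptotic protein (1.36, adjusted p = 7.8e-10). The antiviral GTPases MX1 (1.23, edgeR adjusted p = 6.0e-12) and MX2 (1.15, adjusted p = 1.9e-04) rose as well. Of 12 genes typical of interferon gamma, 5 were tested, 4 rose and 1 fell. Among all tested genes 22.6% were called higher and 22.1% lower. GBP4 (0.53, edgeR adjusted p = 1.1e-04), GBP1 (0.43, adjusted p = 5.0e-04) and WARS (0.19, adjusted p = 1.4e-03) rose. CD274 (0.12, edgeR adjusted p = 8.0e-03) rose too and was named after its value was seen. GBP2 fell (-0.36, edgeR adjusted p = 0.0313), a call lost without ELAPOR1 replicate 1 (-0.26, adjusted p = 0.147), ELAPOR1 replicate 4 (-0.34, adjusted p = 0.0710) or control replicate 3 (-0.26, adjusted p = 0.157).

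**Figure D4:**
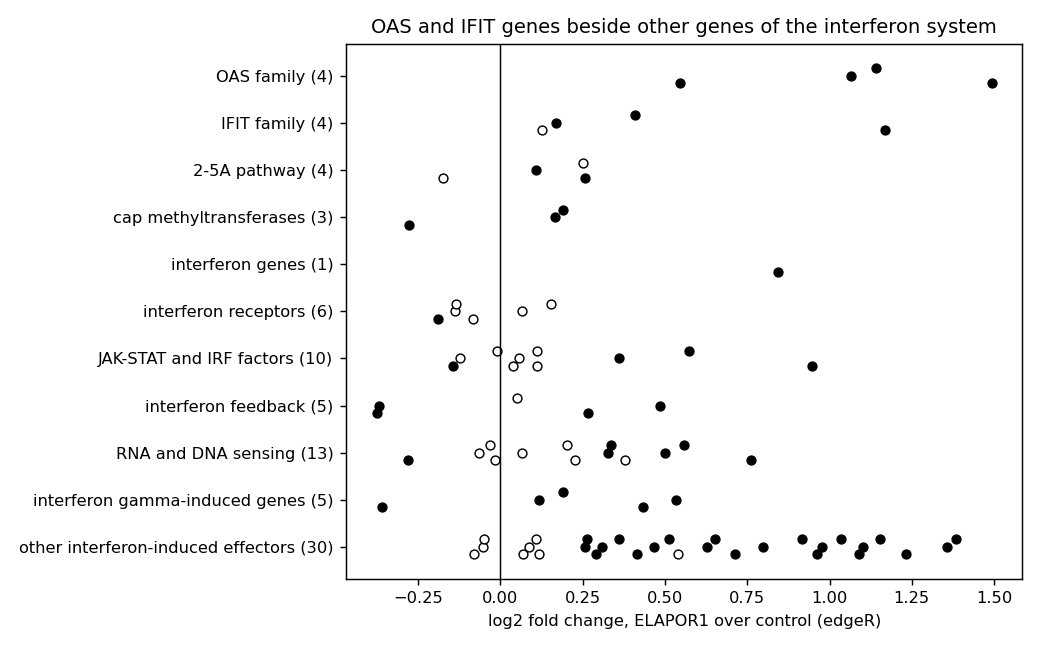
Log2 fold change of ELAPOR1 over control (x axis) of each tested gene in the OAS and IFIT families and in 9 other lists of the interferon system, with the number tested in brackets. Each point is 1 gene, filled where it passed the edgeR test, and vertical offsets only separate points. The largest change shown is that of OAS2 at 1.49, and the receptors lie between -0.19 and 0.15.

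The genes closest in profile to the mean of the 8 were found among the 10695 tested genes whose mean reached 5 CPM. Likeness was the root mean square difference, over the 8 libraries, of log2(CPM + 1) centred on the control mean. The closest were MALL, a membrane raft protein (0.0487), NRP1, a co-receptor for semaphorins and vascular endothelial growth factor (0.04997), ARL6IP1, a protein of the endoplasmic reticulum (0.0544), HMGA2, a chromatin protein (0.0561), and the RNA sensor IFIH1 (0.0573). Their log2 fold changes were 0.79, 0.83, 0.80, 0.77 and 0.76. By the same measure the 8 members lay farther from their own mean, at 0.158 (OASL) to 0.508 (OAS2). A gene close to this mean therefore need not follow any single member. Of the 5, only IFIH1 belongs to the lists of the interferon system used here.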

How the data were processed

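Total RNA of 8 Panc 10.05 libraries was sequenced on an Illumina NextSeq instrument, per the labels' protocols. The authors deposited expected counts per gene, unscaled, of which 15.0% of nonzero values were not whole. The submitters' processing notes name cutadapt, STAR, RSEM, DESeq2 and hg38. Versions, annotation and strand setting are not given in the sources used here. Counts were rounded and tested in R 4.3.3 with edgeR 4.0.16 (filterByExpr, TMM, robust quasi-likelihood test, two-sided, no covariate), with Benjamini-Hochberg adjustment over 13860 genes and a threshold of 0.05. Standard errors are the log2 fold change over the square root of F. Coordinates and exon lengths are from GENCODE 29 (GRCh38), in which 58597 of 58870 gene IDs were found. Depth was 13765504 to 18128732 counts a library.

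Ratios used counts plus 0.5 and an exact permutation test (scipy 1.17.1). The members and gene lists were chosen with earlier results of these data known. Named are all members, all tested genes of lists of up to 6, the 4 called genes with the largest change of longer lists, tested genes within 250 kb, and the 5 nearest profiles; a few genes that this rule names are not reported here. Alternatives were DESeq2 size factors, total count scaling, the DESeq2 1.42.0 Wald test, limma-voom (limma 3.58.1), other filters (1 count in all, or 10 in each library), a replicate block, an adjusted p under 0.01, a 1.5-fold test, each library left out, a ratio pseudocount of 5 counts, log2(CPM + 0.1), and shorter motifs, of which GAAANGAAA was chosen after seeing the data. The fit was tested on simulated data. Plots were drawn with matplotlib 3.10.9.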

Additional observations from a re-analysis of the deposited data

Results flagged for a closer look

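In 7 of 142 groups of 4 libraries, 1 library stood apart from the other 3 by more than Dixon's 95% critical share of the range. The groups covered CPM of the members and of the genes named with them, ratios within families, and library totals. Chance alone gives about 1 in 20, or 7.1. No explanation of these gaps was tested.

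Control replicate 3 was the highest control library for IFIT3, at 174 CPM against 153 to 156 CPM in the others (gap over range 0.850). Without that library IFIT3 still passed the test. Control replicate 2 was the lowest for the log2 ratio of IFIT3 to IFIT5, at 2.38 against 2.51 to 2.53 (0.870). Control replicate 3 was the lowest control for IFNE, at 1.98 CPM against 2.88 to 3.01 CPM (0.877). Control replicate 1 was the lowest for SOCS3, at 46.5 CPM against 50.9 to 51.7 CPM (0.834), and control replicate 2 was the lowest for DDX58, at 49.1 CPM against 54.4 to 55.1 CPM (0.879). Among ELAPOR1 libraries, replicate 3 was the lowest for IFNGR1, at 14.5 CPM against 15.4 to 15.6 CPM (0.831), and replicate 2 for MALL, at 133.7 CPM against 141 to 142 CPM (0.860).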

How the results depend on the processing

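The 7 genes called higher stayed called under every alternative but the test against a 1.5-fold change, which left 4, and 215 of all tested genes. IFIT5 was not called under any of its 17 alternatives, with log2 fold changes of 0.092 to 0.16. That test left 0 called genes higher in the 2-5A pathway, feedback and interferon gamma lists, 1 each in the JAK-STAT and sensing lists and 6 effectors, and 0 lower in the receptor, JAK-STAT, feedback, sensing and interferon gamma lists. The 1 receptor called lower became 0 with the DESeq2 Wald test, limma-voom, no filter, the replicate block, total count scaling and an adjusted p under 0.01, and total count scaling called 1 receptor higher. The 1 interferon gamma gene called lower became 0 with the DESeq2 Wald test and with an adjusted p under 0.01, and without the filter 7 of that list were called higher.

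Leaving out 1 library at a time gave 5557 to 6316 called genes in all, 7 members higher, 0 to 1 receptors higher and 0 to 1 lower, 3 to 4 JAK-STAT genes higher and 0 to 2 lower, 5 to 6 sensing genes higher, 20 to 24 effectors higher and 0 to 1 lower, 0 to 1 interferon gamma genes lower, and 0 unequal pairs, since 7 libraries cannot give p under 0.0571. IFNAR2, not called at -0.08, ranged from -0.14 without ELAPOR1 replicate 4 to 0.0067 without ELAPOR1 replicate 3, and IQCD, not called at -0.16, from -0.40 without control replicate 4 to 0.071 without ELAPOR1 replicate 1. The cause was not tested.

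Across genes, deviations of equally numbered libraries correlated at -0.038 to 0.020. The mean profile of the members, however, ranked the replicate numbers in the same order in both groups. It was highest in replicate 3 (0.107 in control, 0.801 in ELAPOR1) and lowest in replicate 2 (-0.072 in control, 0.726 in ELAPOR1). Whether the members share an effect of replicate number was not tested. With the replicate block 5926 genes were called, against 6193 without it, and 7 members. No scaling moved the median of all genes by more than 0.1. The 5 nearest profiles were the same with log2(CPM + 0.1).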
